A study of Mus musculus with 24 samples.

Results

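Dbp, Tef, Hlf and Nfil3 encode the basic leucine zipper factors that act at D-box elements, and 8 of the 45101 probe sets of the arrays carry 1 of these symbols in the platform's annotation. They comprise 2 probe sets of Dbp, 3 of Tef, 2 of Hlf and 1 of Nfil3. All 8 lay above the filter on low signals, which left 27040 probe sets in all for testing, among them those of 13885 named genes. Whole adrenal glands came from male C57B/6J mice of 3 months, entrained for 2 weeks to 12 h of light and 12 h of darkness and killed in constant darkness. Killing took place every 4 h, at 38, 42, 46, 50, 54, 58, 62, 66, 70, 74, 78 and 82 h after lights off, and each of these times has 2 of the 24 arrays. Subtracting the 12 h of a dark phase gives the projected circadian times 2, 6, 10, 14, 18 and 22, each sampled in 2 cycles, with circadian time 0 at the projected lights on. All groups share strain, sex, age, entrainment and darkness, and there is no mutant or light-exposed group. Nothing in the labels tells whether glands were pooled or whether the arrays of a time stand for different animals. P-values therefore reflect the spread between these arrays alone, and that spread may be technical.

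Dbp, Tef and Hlf form the PAR family, named after a proline and acidic amino acid rich domain, and they activate genes by binding D-boxes as dimers. Nfil3, also known as E4BP4, binds the same elements and represses. In the textbook circuit of the mouse liver and the suprachiasmatic nucleus, CLOCK and BMAL1 (Arntl) drive Dbp through E-boxes, while the nuclear receptors Nr1d1 and Nr1d2 repress Nfil3 through ROR elements. D-boxes in turn lie in clock genes of the Per and nuclear receptor families, and in liver and kidney genes of drug and vitamin B6 metabolism.

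The sequences before the annotated starts of Tef, Hlf and Nfil3 are shown because each holds the letters of 1 of 7 motifs that were searched: an E-box, a cyclic AMP response element and the core of a ROR element. RefSeq (GRCm38.p6) lists 5 windows for the 4 genes, and each sequence below runs over the 250 bases before the start, 5′ to 3′ on the gene's strand. Capitals mark the letters that matched a searched motif. For Tef, which has 2 annotated starts on the plus strand, they mark an E-box, CACGTG, at bases 127 to 122 before the start in chr15:81802423-81802672 and at bases 138 to 133 before the start in chr15:81811164-81811413. For Hlf, on the minus strand at chr11:90390918-90391167, they mark a cyclic AMP response element, TGACGTCA, at bases 9 to 2 before the start. For Nfil3, on the minus strand at chr13:52981040-52981289, they mark TGACCTA at bases 12 to 6 before the start, which is the core of the ROR element, TAGGTCA, read on the other strand.
Tef, first start: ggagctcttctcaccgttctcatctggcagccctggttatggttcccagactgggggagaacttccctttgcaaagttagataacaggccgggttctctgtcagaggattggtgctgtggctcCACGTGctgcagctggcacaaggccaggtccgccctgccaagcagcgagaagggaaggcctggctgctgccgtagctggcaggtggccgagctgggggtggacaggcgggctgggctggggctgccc
Tef, second start: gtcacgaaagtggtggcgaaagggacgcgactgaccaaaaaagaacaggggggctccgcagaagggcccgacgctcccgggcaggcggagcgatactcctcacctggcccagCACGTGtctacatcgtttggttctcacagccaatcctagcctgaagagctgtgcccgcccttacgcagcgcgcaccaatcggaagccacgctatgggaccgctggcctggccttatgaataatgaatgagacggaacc
Hlf: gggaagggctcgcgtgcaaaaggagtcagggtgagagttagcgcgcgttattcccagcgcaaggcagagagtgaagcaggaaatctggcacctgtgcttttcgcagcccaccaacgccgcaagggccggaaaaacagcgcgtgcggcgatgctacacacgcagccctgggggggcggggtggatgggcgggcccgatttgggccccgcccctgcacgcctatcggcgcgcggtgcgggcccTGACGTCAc
Nfil3: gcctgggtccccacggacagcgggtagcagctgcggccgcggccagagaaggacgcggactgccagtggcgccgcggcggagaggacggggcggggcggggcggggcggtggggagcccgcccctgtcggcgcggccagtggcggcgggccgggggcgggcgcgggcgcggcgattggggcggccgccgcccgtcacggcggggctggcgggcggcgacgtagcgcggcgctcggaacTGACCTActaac

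The search covered both strands of 300 bases, 250 before and 50 after each start, in 32851 windows of the genome. The E-box CACGTG lay in 7.15% of all windows and in 2 of the 5 windows of the 4 genes. TAGGTCA lay in 2.61% of all windows and in 1 of the 5. TGACGTCA lay in 1.79% of all windows and in 1 of the 5. The E-box variant CACGTT (4.68% of windows), the D-box letters TTATGTAA (0.938%) and TTACGTAA (0.119%) and the ROR core variant TGGGTCA (3.98%) were in none of the 5. The motifs do not overlap one another in these windows. The window of Dbp, at chr7:45704997-45705246 on the plus strand, held none of the 7 motifs, which says only that these letters are not in that window. Probe sequences and protein sequences were not used here.

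The defining markers of the labelled tissue were present. The cortex genes Star, Cyp11a1, Cyp11b1, Hsd3b1, Nr5a1 and Mc2r ranged over all profiles between 1976 and 13469 signal units, and the medulla genes Th, Dbh, Chga and Pnmt between 2183 and 10954. Arrays fell into 2 sets by the spiked control ThrX-3, at 513 to 1858 on the 8 arrays of circadian times 10 and 18 and at 56.3 to 101 on the other 16. Signal at the 5' end of Gapdh over that at its 3' end was 0.0386 to 0.978 on those 8 arrays, called the second array set here, and 1.03 to 1.15 on the 16 arrays of the first array set. Summed muscle markers (4 of 4 named) reached 259 to 22691 in the second set and 249 to 318 in the first, where Mylpf and Tnnt3 were at 0. Summed liver markers (3 of 4 named) were 1205 to 14606 in the second set and 508 to 1893 in the first. Kidney markers (3 of 3) summed to 913 to 1439 in the second set and 1767 to 2090 in the first. Red blood cell markers (2 of 3) summed to 593 to 1468 in the second set and 400.4 to 625 in the first, and fat markers (2 of 3) to 6306 to 9397 in the second and 5148 to 8634 in the first. Cortex markers (6 of 6) summed to 52571 to 57708 in the second set and 56405 to 59708 in the first, and medulla markers (4 of 4) to 21343 to 28747 in the second and 22056 to 30886 in the first. In 6 of 276 pairs the 2 arrays were near-copies, differing by far less than other arrays did, with an SD of the log2 ratio of 0.0415 to 0.0418 against 0.217 to 0.516 in the 30 other pairs of equal circadian time. The arrays of such a pair entered as 1 sample, so that 18 profiles were analysed, 3 per circadian time. Signals of different probe sets are not compared as levels, since probes differ in affinity.

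All 8 probe sets of the D-box factors passed the test of a 24 h rhythm (limma, adjusted p under 0.05), against 10.2% of all tested probe sets. The activators came first, with fitted peaks of Dbp at circadian time 9.57 ± 0.27 h, of Hlf at 11.7 ± 0.86 h and of Tef at 12.4 ± 0.22 h (SE, brightest probe set, 18 profiles). The repressor Nfil3 peaked at 18.9 ± 0.52 h. Amplitudes, each the fitted peak minus the fitted mean in log2 units, were 2.18 ± 0.16 for Dbp, 0.96 ± 0.13 for Nfil3, 0.93 ± 0.05 for Tef and 0.36 ± 0.08 for Hlf. The median over all tested probe sets was 0.12, and over those called it was 0.25. In whole glands, fewer cells of a type and less RNA per cell cannot be told apart. With the array set as a block 7 of the 8 passed, against 16% of all probe sets. The second array set holds circadian times 10 and 18 only. Fits with the block therefore separate the array set from the rhythm only as far as the rhythm follows a 24 h cosine. Within the 12 profiles of the first array set 5 of the 8 passed, against 10.1%. Counting the brightest probe set of each gene, 4 of 4 factors passed, against 11.3% of genes, and 4 of 4 passed with the block, against 16.7%.

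**Figure D1:**
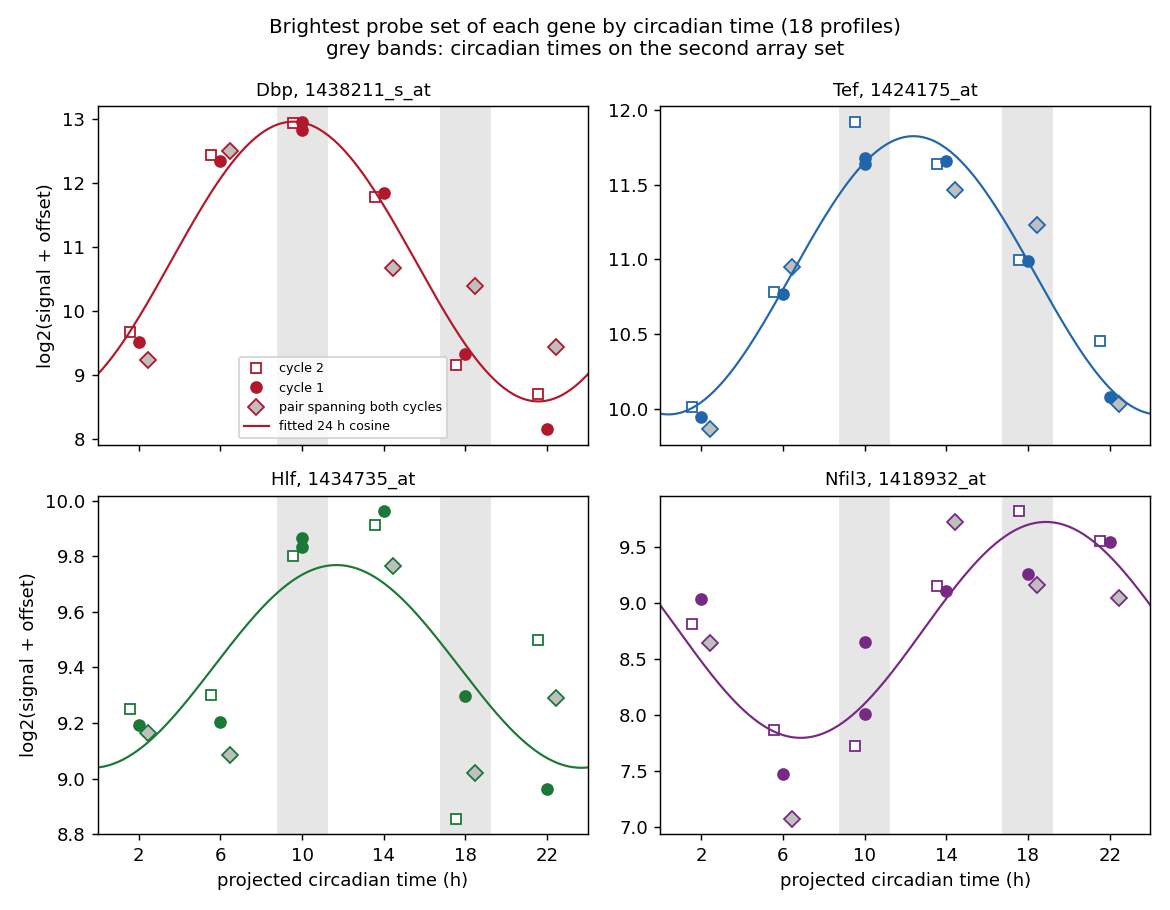
Signal of the brightest probe set of each gene, as log2(signal + 51), against projected circadian time, with a point per profile and the fitted 24 h cosine as a line. Open squares are cycle 2, filled circles cycle 1 and grey diamonds near-copy pairs spanning both cycles; the Dbp curve tops out near circadian time 10 and that of Nfil3 near 19.

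Dbp, the most strongly cycling of the activators in this gland, was high at circadian times 6 and 10 and low at 18, 22 and 2. Probe set 1438211_s_at, whose suffix marks probes that can match more than 1 transcript, read 553, 684 and 766 at circadian time 2, 5159.5, 5495 and 5719 at circadian time 6 and 7205, 7777 and 7826 at circadian time 10. It read 1578, 3454 and 3635 at circadian time 14, 522, 593 and 1294 at circadian time 18 and 233, 367 and 640.4 at circadian time 22. The order of mean levels was 10, 6, 14, 18, 2 and 22. Signals at circadian times 18, 2 and 22 overlapped, whereas those of 10, 6 and 14 did not overlap with each other or with the low times. Circadian time 10 lies on the second array set and 6 on the first, so the step between them cannot be told apart from the array set.

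The fitted peak of Dbp was 20.7 times its trough, the cosine took up 91.6% of the variance between profiles, and the adjusted p was 1.5e-06. Its amplitude ranked 1 among the 27040 tested probe sets, at 2.185 ± 0.16 (SE). That of Arntl, at 2.181 ± 0.24, differed by far less than either SE. The second Dbp probe set, 1418174_at, ranked 3, with an amplitude of 2.10 ± 0.17 (SE), a peak at 9.59 ± 0.31 h and an adjusted p of 4.81e-06. Its peak fell 0.02 h later than that of the first (95% interval -0.16 to 0.20 h). Amplitudes of the pair were 2.17 and 2.08 with the array set as a block and 2.27 and 2.20 within the first array set, and each of these passed, with adjusted p-values of up to 0.000552. The profile pairs that stood apart from the other profiles of their time were shared by both probe sets. At circadian time 14 the pair of 50 h replicate 1 and 74 h replicate 2 read 1578 and 762.3 units on the 2 Dbp probe sets, the lowest of that time, and at circadian time 18 the pair of 54 h replicate 1 and 78 h replicate 1 read 1294 and 742 units, the highest of that time.

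Tef, a PAR factor named after the pituitary's thyrotroph cells, was high at circadian times 10 and 14 and low at 22 and 2. Probe set 1424175_at read 879, 934 and 979 at circadian time 2, 1691, 1705 and 1923 at circadian time 6 and 3142, 3223 and 3829 at circadian time 10. It read 2773, 3139.9 and 3180.0 at circadian time 14, 1979, 1986 and 2352 at circadian time 18 and 993, 1029.9 and 1348 at circadian time 22. The order of mean levels was 10, 14, 18, 6, 22 and 2. Signals at 10 and 14 overlapped, and no other neighbours in that order did. The neighbours 22 and 2 lay 0.25 apart in mean log2 value, a difference that did not pass (circadian time 2 minus 22, -0.25 ± 0.11, SE, adjusted p = 0.524).

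The cosine took up 95% of the variance of Tef 1424175_at, the highest share among the 8 probe sets, with a peak 3.64 times the trough and an adjusted p of 1.73e-07. Its amplitude ranked 105 of 27040. It was 0.88 ± 0.05 with the block (adjusted p = 1.99e-07) and 0.87 ± 0.06 within the first array set (adjusted p = 2.15e-05). The 2 dimmer probe sets of Tef moved less. Signals of 1450184_s_at spanned 172 to 344 over the arrays and those of 1438033_at 173 to 314, not far above the filter at a signal of 183. Their amplitudes were 0.24 ± 0.06 and 0.20 ± 0.04 (SE), with peaks at 12.0 and 12.2 h and adjusted p-values of 0.0343 and 0.0196. With the block the amplitude was 0.21 on 1450184_s_at (adjusted p = 0.0648) and 0.17 on 1438033_at (adjusted p = 0.0417), and within the first array set neither passed (adjusted p = 0.0764 and 0.0907). The peaks of 1450184_s_at and 1438033_at lay at 11.6 and 11.9 h with the block and at 15.0 and 13.3 h within the first array set. The added offset understates changes of dim probe sets, and with an offset of 1 their amplitudes were 0.29 and 0.25. The difference in amplitude between the bright and the dim probe sets of Tef is given as measured, and which transcripts each probe set reads was not tested.

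Hlf, the third PAR factor, known as a fusion partner in a human leukaemia and for its expression in blood stem cells, had the smallest amplitude among the brightest probe sets of the 4 genes. Probe set 1434735_at read 523, 534 and 558 at circadian time 2, 492, 538 and 580.0 at circadian time 6 and 842, 861 and 881 at circadian time 10. It read 819, 913 and 947 at circadian time 14, 412, 468 and 578 at circadian time 18 and 448, 576 and 673 at circadian time 22. All 6 profiles of circadian times 10 and 14 lay above all 12 of the other times. Signals at 10 and 14 overlapped with each other, and so did those of 2, 6, 18 and 22. The call of its rhythm was lost without 46 h replicate 1 (adjusted p = 0.0545) or 46 h replicate 2 (adjusted p = 0.0518).

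The fitted cosine of Hlf 1434735_at took up 54.2% of its variance, with a peak 1.66 times the trough and an adjusted p of 0.0233. The second probe set, 1434736_at, drawn from the same deposited transcript sequence, had an amplitude of 0.59 ± 0.12 (SE), a peak at 11.4 ± 0.75 h and an adjusted p of 0.0106. Its signal was 863, 901 and 923 at circadian time 10 and no higher than 487 in any profile of another time. At circadian time 14 it read 378, 449.9 and 487, so the 2 probe sets of Hlf differed in shape there: 1434735_at was about as high at 14 as at 10. Circadian time 10 lies on the second array set and 14 on the first, so this difference in shape cannot be told apart from the array set. With the array set as a block the amplitudes were 0.43 ± 0.09 for 1434735_at and 0.46 ± 0.09 for 1434736_at (adjusted p = 0.00743 and 0.00786). Within the first array set 1434735_at peaked at 14.3 ± 0.73 h (amplitude 0.37, adjusted p = 0.005) and 1434736_at did not pass (amplitude 0.29, adjusted p = 0.052). The fitted peak of Hlf thus lay between 11.7 and 14.3 h for 1434735_at and between 10.4 and 12.8 h for 1434736_at, depending on whether circadian times 10 and 18 entered and how.

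**Figure D2:**
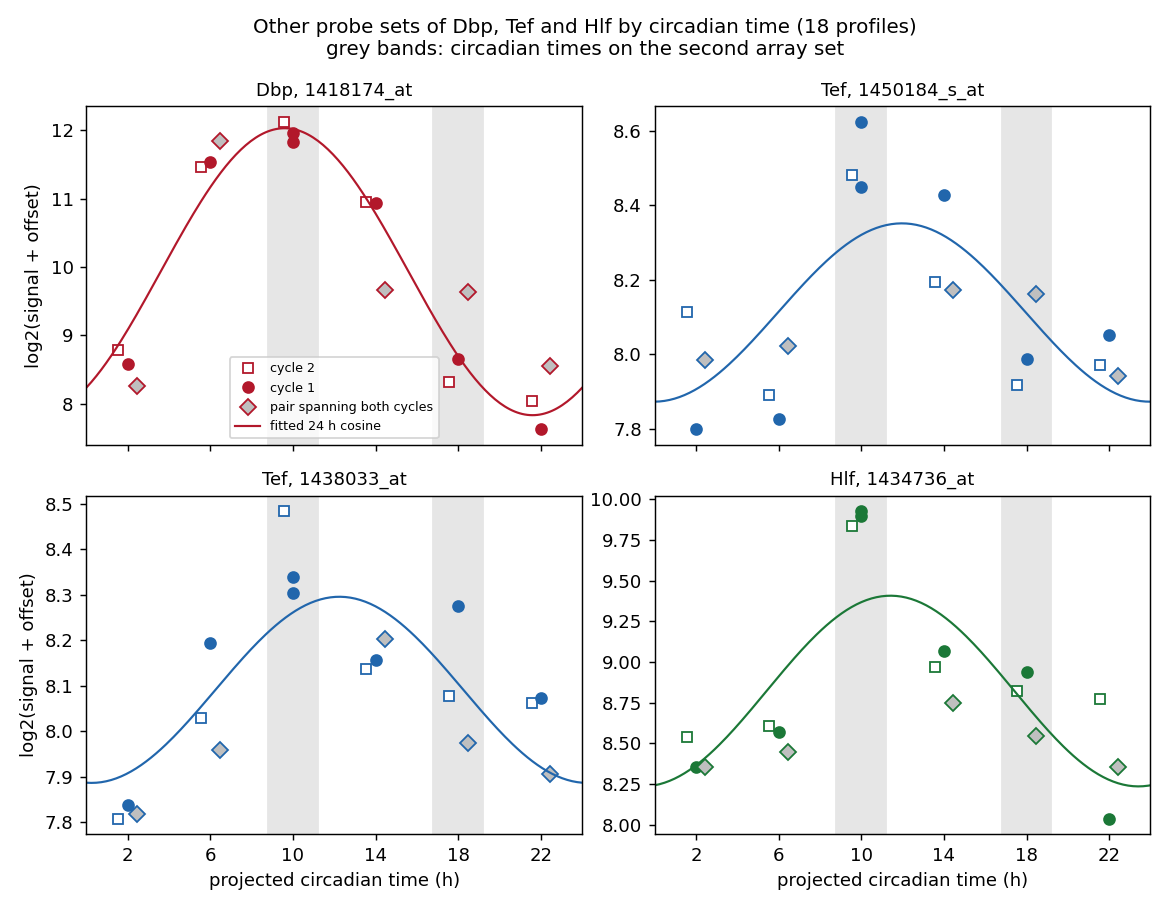
Signal of the other probe sets of Dbp, Tef and Hlf, as log2(signal + 51), against projected circadian time, with symbols as for the brightest probe sets and the fitted 24 h cosine as a line. The second Dbp probe set spans more than 4 log2 units and each dim Tef probe set less than 1; for Hlf 1434736_at the 3 profiles of circadian time 10 stand above all others.

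Nfil3, the repressor of the group, was high at circadian times 14, 18 and 22 and low at 6 and 10. Probe set 1418932_at read 349, 398 and 474 at circadian time 2, 83.7, 127 and 183 at circadian time 6 and 161, 207 and 351 at circadian time 10. It read 499, 519 and 795 at circadian time 14, 521, 561 and 852 at circadian time 18 and 478, 697 and 702 at circadian time 22. The order of mean levels was 18, 22, 14, 2, 10 and 6. Signals at 18, 22 and 14 overlapped, every one of them exceeded the signals at 2, and those of 2 and 10 and of 10 and 6 overlapped at their edges.

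The fitted peak of Nfil3 was 3.80 times its trough, with 75.3% of the variance in the cosine and an adjusted p of 0.000752. Its amplitude ranked 91 of 27040. It was 0.99 ± 0.13 with the block (peak at 18.6 ± 0.55 h, adjusted p = 0.000259) and 1.16 ± 0.16 within the first array set (peak at 18.8 ± 0.45 h, adjusted p = 0.00253). Its lowest signals fall near or below the filter signal of 183, where the offset narrows differences, and with an offset of 1 its amplitude was 1.13. No second probe set of Nfil3 was named here, so there is no independent reading of it on these arrays.

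Set against one another on the same profiles, the peaks of Dbp, Tef and Nfil3 were apart on their brightest probe sets, whereas the place of Hlf depended on the probe set and the profiles. Tef peaked 2.82 h after Dbp (95% interval 2.18 to 3.45 h), 2.77 h with the block and 2.88 h within the first array set. Nfil3 peaked 9.30 h after Dbp (8.29 to 10.3 h) and 6.49 h after Tef (5.22 to 7.75 h). Against Hlf 1434735_at Nfil3 was 7.19 h later (4.79 to 9.59 h), which was 4.45 h within the first array set (2.41 to 6.49 h). Hlf 1434735_at peaked 2.11 h after Dbp (0.016 to 4.20 h), and 4.89 h after it within the first array set (2.90 to 6.87 h). Against the second Dbp probe set it was 2.09 h later (-0.07 to 4.25 h). Hlf 1434736_at peaked 1.84 h after Dbp 1438211_s_at over all profiles (-0.01 to 3.70 h) and 0.93 h after it with the block (-1.197 to 3.05 h), and these 3 intervals include 0. Within the first array set Hlf 1434736_at peaked 3.37 h after Dbp 1438211_s_at (0.50 to 6.23 h). With the block Hlf 1434735_at peaked 2.54 h after Dbp 1438211_s_at (0.67 to 4.41 h). The difference of Tef minus Hlf 1434735_at was 0.71 h (-1.34 to 2.75 h) over all profiles and -2.01 h (-3.88 to -0.14 h) within the first array set, so their order changed sign with the profiles used. These intervals cover the scatter of the profiles around 1 cosine per gene, which are 18 profiles or, within the first array set, 12. In each of 3 fits 28 pairs of probe sets were set against each other.

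**Figure D3:**
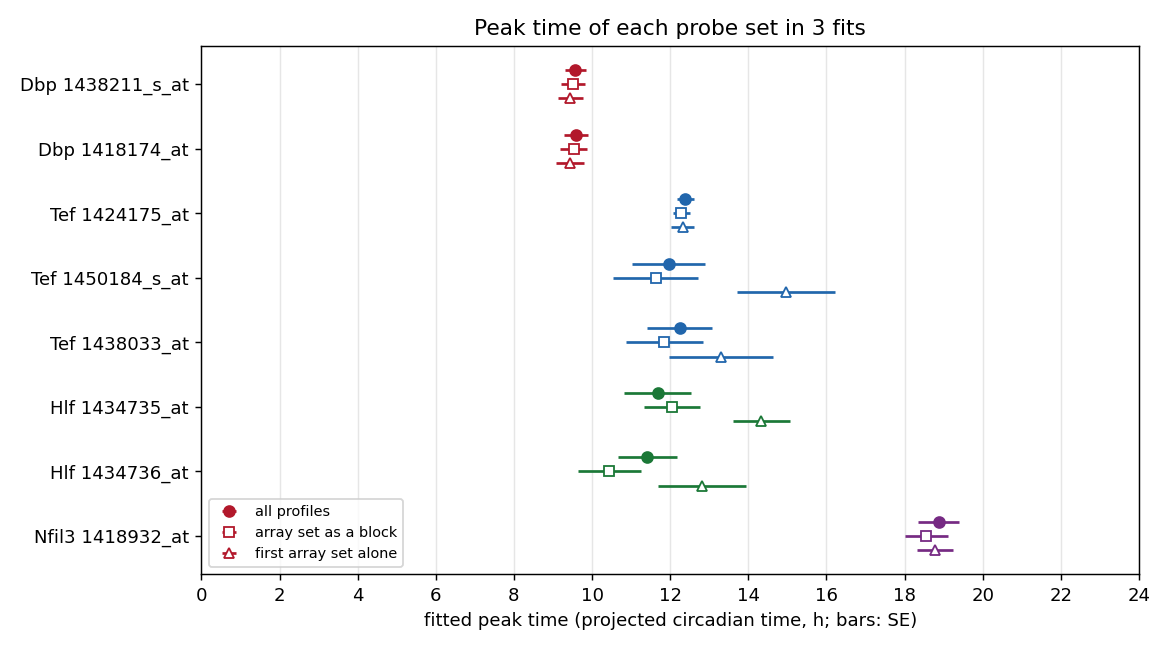
Fitted peak time of each probe set in projected circadian hours, with SE bars, from all 18 profiles (filled circles), with the array set as a block (open squares) and from the first array set alone (open triangles). Dbp stays between 9.4 and 9.6 h and Nfil3 between 18.6 and 18.9 h in the 3 fits, whereas Hlf 1434735_at spans 11.7 to 14.3 h and the dim Tef 1450184_s_at 11.6 to 15.0 h.

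Comparisons of circadian times that lie on arrays of the same set need no assumption on shape, but arrays of a set can still differ. On the 8 arrays of the second set, Gapdh read 0.0386 to 0.978 times as high at its 5' end as at its 3' end. On the first set this was 1.03 to 1.15. These values are not split by circadian time here, and their part in the comparison of 18 with 10 was not tested. At circadian time 18 against 10, both on the second array set, 7 of the 8 probe sets were lower and Nfil3 was higher at an adjusted p under 0.05, against 21.7% of all probe sets changed in either direction. Dbp 1438211_s_at averaged 9.63 log2 units at circadian time 18 and 12.90 at 10, a difference of -3.27 ± 0.34 (SE, adjusted p = 6.7e-06). Tef 1424175_at averaged 11.07 at 18 and 11.75 at 10 (-0.68 ± 0.11, adjusted p = 0.00041). Hlf changed by -0.78 ± 0.12 on 1434735_at (adjusted p = 0.000317) and by -1.12 ± 0.15 on 1434736_at (adjusted p = 6.71e-05). Nfil3 averaged 9.41 at 18 and 8.13 at 10 (1.28 ± 0.26, adjusted p = 0.00203). The dim Tef probe set 1438033_at passed narrowly (-0.27 ± 0.09, adjusted p = 0.0443). Its call was lost with quantile normalization (adjusted p = 0.097) and in 14 of 18 fits without 1 profile (adjusted p of up to 0.151), all but those without 42 h replicate 1, 54 h replicate 2, the pair of 66 h replicate 1 and 42 h replicate 2 or the pair of 58 h and 82 h replicate 2. The other 7 probe sets passed in each of these fits.

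Muscle and liver transcripts moved with these profiles: summed muscle markers were 509.8 to 22691 at circadian time 18 and 259 to 7652 at 10, and summed liver markers 1387 to 14606 at 18 and 1205 to 1423 at 10. Leaving out any 1 profile kept the brightest probe set of each of the 4 genes past the threshold in this comparison, with differences of -3.65 to -3.04 for Dbp and 1.08 to 1.54 for Nfil3. Outside the 4 profiles with an Acta1 signal over 1000, 1 profile of each time remains. The remaining profiles had an Acta1 signal of 192 at circadian time 18 and 31.8 at 10. In these Dbp 1438211_s_at read 593 at circadian time 18, against 7205 at 10. Tef 1424175_at read 1979 at 18 and 3142 at 10, Hlf 1434735_at read 578 at 18 and 861 at 10, and Nfil3 read 561 at 18 and 351 at 10. Without those 4 profiles the 24 h amplitudes were 2.25 for Dbp 1438211_s_at, 0.89 for Tef 1424175_at, 0.36 for Hlf 1434735_at and 0.98 for Nfil3, each with an adjusted p under 0.05, while Hlf 1434736_at did not pass (0.44, adjusted p = 0.087).

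The other comparisons lie within the first array set. At circadian time 2 against 22 none of the 8 probe sets passed (limma, adjusted p of at least 0.524), with 3 at an unadjusted p under 0.05, against 0.129% of all probe sets past the threshold. At circadian time 6 against 2, 3 probe sets were higher, both of Dbp and the bright one of Tef, and Nfil3 was lower, against 0.226% of all probe sets in either direction. Summed muscle markers were 296 to 312 at 6 and 267 to 275 at 2, medulla markers were 22669 to 27199 at 6 and 22056 to 23364 at 2, and their part in the result was not tested. Dbp 1438211_s_at averaged 12.43 at 6 and 9.48 at 2 (2.95 ± 0.34, adjusted p = 0.0013), and Tef 1424175_at 10.83 at 6 and 9.94 at 2 (0.89 ± 0.11, adjusted p = 0.00227). Nfil3 averaged 7.47 at 6 and 8.83 at 2 (-1.36 ± 0.26, adjusted p = 0.0418). That call of Nfil3 was lost without 38 h replicate 1 (adjusted p = 0.28), 42 h replicate 1 (0.177), 62 h replicate 1 (0.169), the pair of 66 h replicate 1 and 42 h replicate 2 (0.248) or the pair of 38 h and 62 h replicate 2 (0.0987), and without 46 h replicate 1, 58 h replicate 1, 74 h replicate 1 or 50 h replicate 2, of other times (0.0523 to 0.0619). Hlf 1434735_at averaged 9.196 at 6 and 9.203 at 2 (-0.01 ± 0.12).

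At circadian time 14 against 6, Tef, Hlf and Nfil3 were higher, 3 of the 8 probe sets, against 4.14% of all. Summed medulla markers were also higher, at 27487 to 30886 at 14 and 22669 to 27199 at 6, as were kidney markers, at 1939.6 to 2089.7 at 14 and 1773 to 1872 at 6, and their part in the result was not tested. Nfil3 averaged 9.33 at 14 and 7.47 at 6 (1.85 ± 0.26, adjusted p = 0.000566), Tef 1424175_at 11.59 at 14 and 10.83 at 6 (0.76 ± 0.11, adjusted p = 0.000877) and Hlf 1434735_at 9.88 at 14 and 9.20 at 6 (0.68 ± 0.12, adjusted p = 0.00459). Dbp 1438211_s_at averaged 11.43 at 14 and 12.43 at 6 (-0.995 ± 0.34, adjusted p = 0.125), so its direction ran opposite to the others without passing the test.

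At circadian time 22 against 14, 4 of the 8 probe sets were lower, against 1.47% of all in either direction. Summed medulla markers were lower too, at 24413 to 26556 at 22 and 27487 to 30886 at 14, and liver markers were 508 to 533 at 22 and 511 to 1106 at 14, and their part in the result was not tested. Dbp 1438211_s_at averaged 8.76 at 22 and 11.43 at 14 (-2.67 ± 0.34, adjusted p = 0.00114), Tef 1424175_at 10.19 at 22 and 11.59 at 14 (-1.40 ± 0.11, adjusted p = 1.65e-05) and Hlf 1434735_at 9.25 at 22 and 9.88 at 14 (-0.63 ± 0.12, adjusted p = 0.0169). The call of Hlf was lost without 58 h replicate 1, 74 h replicate 1, 50 h replicate 2 or the pair of 58 h and 82 h replicate 2 (adjusted p = 0.0557 to 0.0972). Nfil3 averaged 9.38 at 22 and 9.33 at 14 (0.06 ± 0.26, adjusted p = 0.977). For each of the 3 activators the signals of these times did not overlap on the brightest probe set, whereas those of the repressor did.

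**Figure D4:**
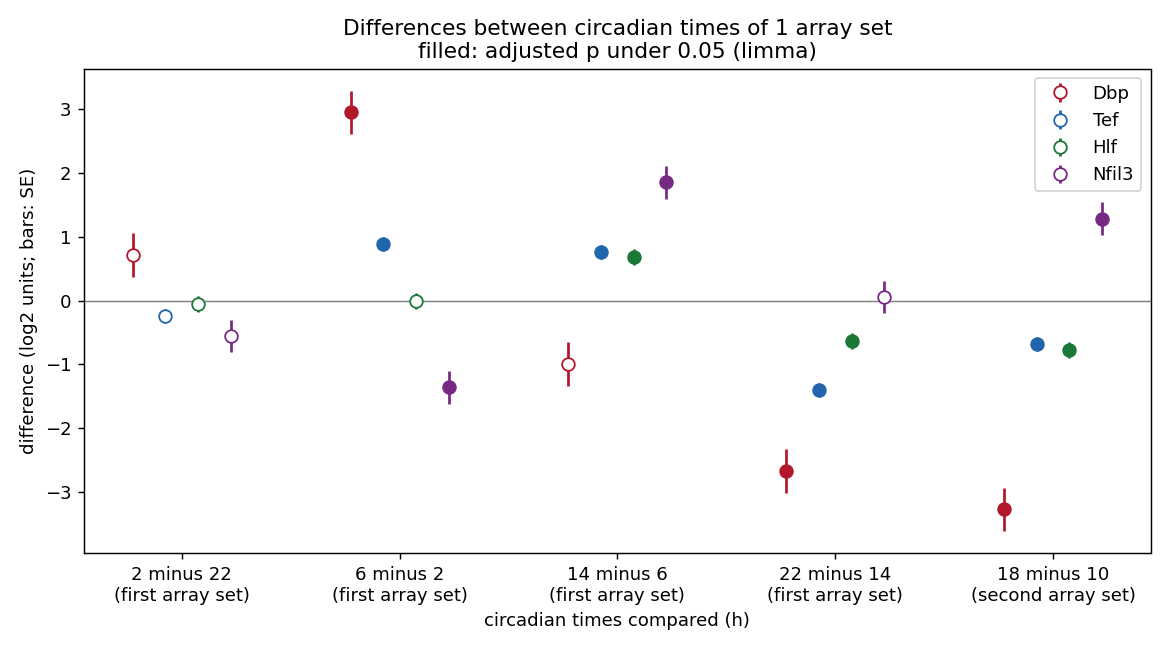
Difference in log2 units between the named circadian times, later minus earlier, for the brightest probe set of each gene, with SE bars and filled points at an adjusted p under 0.05. Dbp spans 2.95 at 6 minus 2 to -3.27 at 18 minus 10; at 14 minus 6 the other 3 genes are filled above 0 and at 22 minus 14 the 3 activators are filled below it.

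Asked without a cosine, whether any of the 6 circadian times differed, all 8 probe sets passed, with adjusted p-values between 1.44e-08 for Tef 1424175_at and 0.00215 for Tef 1438033_at. The share of all probe sets past this test was 52.9%, and the array set cannot be told apart from circadian times 10 and 18 in it. A 12 h component beside the 24 h one passed for 0 of the 8 probe sets (limma, 7 of 8 at an unadjusted p under 0.05) and for 0.263% of all. With the array set as a block it passed for both Hlf probe sets, with amplitudes of 0.26 on 1434735_at (adjusted p = 0.0267) and 0.28 on 1434736_at (adjusted p = 0.0396), against 2.99% of all. The first daily peak of that component lay at 11.7 h and 11.4 h on them, between the sampled times 10 and 14. Mean log2 values were 9.83 at 10 and 9.88 at 14 on 1434735_at, and 9.89 at 10 and 8.93 at 14 on 1434736_at. The fit with the block has as many terms as there are circadian times. Its 12 h component thus rests on how the array set is separated from circadian times 10 and 18.

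The second cycle in darkness could be set against the first in 13 profiles, 6 of cycle 2 and 7 of cycle 1, since pairs spanning both cycles were left out. With circadian time as a factor, none of the 8 probe sets differed in level between cycles (limma, 0 of 8 also at an unadjusted p under 0.05), against 0% of all probe sets. Differences, cycle 2 minus cycle 1, were 0.10 ± 0.08 for Dbp 1438211_s_at, 0.12 ± 0.06 for Tef 1424175_at (unadjusted p = 0.0626), 0.02 ± 0.10 for Hlf 1434735_at and -0.003 ± 0.16 for Nfil3. Amplitudes in cycle 2 and cycle 1 were 2.33 and 2.42 for Dbp, 0.90 and 0.96 for Tef, 0.29 and 0.48 for Hlf and 1.10 and 0.83 for Nfil3. Peaks in cycle 2 and cycle 1 were at 9.44 and 9.68 h for Dbp, 12.4 and 12.4 h for Tef, 10.8 and 12.1 h for Hlf and 19.5 and 19.3 h for Nfil3. The interaction of cycle with the rhythm passed for 0 of the 8 probe sets (0 of 8 at an unadjusted p under 0.05), against 0% of all. Misses of this kind do not show that the cycles were alike.

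Genes known to act upstream of the D-box factors peaked at several times of day. Of 11 E-box factors 8 passed the test of a 24 h rhythm, against 11.3% of all genes. The median amplitude of the 11 was 0.45, against 0.11 over all genes tested. Within the first array set 5 of the 11 passed, against 10.1% of all probe sets. Arntl, the partner of CLOCK that drives E-boxes, had an amplitude of 2.18 ± 0.24 and peaked at 22.5 h, when Dbp was lowest. The repressors of that complex Cry1 (amplitude 1.28 ± 0.09, peak 18.1 h) and Per2 (1.15 ± 0.10, peak 13.7 h) peaked after Dbp, and Cry2 (0.42 ± 0.06, peak 12.8 h) peaked near Tef. Npas2, Per3 and Bhlhe41 were not called. Of 4 tested receptors that act on ROR elements 2 passed, against 11.3% of all genes. Their median amplitude was 0.71, against 0.11 over all genes tested. Nr1d1, a repressor, had an amplitude of 1.77 ± 0.14 and a peak at 7.28 h, the circadian time at which Nfil3 was near its lowest, and Nr1d2 one of 1.33 ± 0.10 and 10.3 h. The activators Rora (0.09 ± 0.06, adjusted p = 0.47) and Rorb (0.05 ± 0.05, adjusted p = 0.647) did not pass.

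Genes known to carry D-boxes or to respond to the PAR factors were also described. Of 9 clock genes with D-boxes 6 passed, Per1, Per2, Nr1d1, Nr1d2, Cry1 and Ciart, against 11.3% of all genes, with a median amplitude of 0.74 against 0.11 over all genes, and this list shares genes with those above. Within the first array set 4 of these 9 passed, against 10.1% of all probe sets. Of 10 genes that the PAR factors control in liver, kidney and brain 5 were tested and 2 passed, against 11.3% of all genes, with a median amplitude of 0.13 against 0.11. Alas1, the first enzyme of haem synthesis, had an amplitude of 0.28 ± 0.05 and a peak at 11.9 h (adjusted p = 0.00517). Pdxk, pyridoxal kinase of vitamin B6 metabolism, had one of 0.33 ± 0.06 and a peak at 13.3 h (adjusted p = 0.00482). Both kept their call with the block and within the first array set. The other tested genes, Cyp7a1 (0.13 ± 0.07, adjusted p = 0.304), Nr1i3 (0.11 ± 0.06, adjusted p = 0.383) and Ces2a (0.07 ± 0.04, adjusted p = 0.378), did not pass. Cyp2b10 and Cyp2c50 lay under the filter, and Por, Cyp2a4 and Cyp2a5 are not analysed here.

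The C/EBP factors, relatives of the same leucine zipper class that are not PAR proteins, were not called: 0 of 4 tested of 5 (limma, 2 at an unadjusted p under 0.05), against 11.3% of all genes, with a median amplitude of 0.22 against 0.11 over all genes. A count of 0 among 4 is near that share and says nothing particular about them. Cebpb had an amplitude of 0.43 ± 0.14 (adjusted p = 0.114) and Cebpg one of 0.15 ± 0.04 (adjusted p = 0.0628), while Cebpe is not analysed here.

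**Figure D5:**
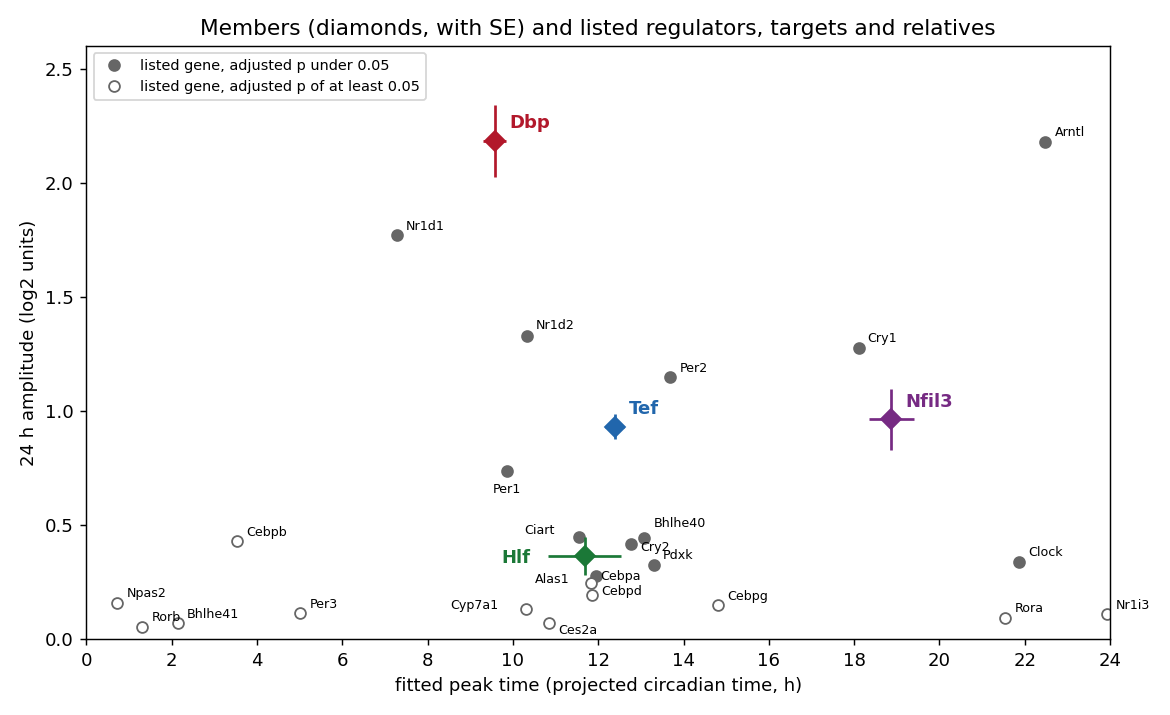
Amplitude in log2 units against fitted peak time for the brightest probe set of Dbp, Tef, Hlf and Nfil3 (diamonds with SE bars) and of each tested gene in the lists (circles, filled at an adjusted p under 0.05). Tef and Hlf lie near Ciart, Alas1, Cry2, Bhlhe40 and Pdxk in time, and near Cebpa and Cebpd, which were not called. Nfil3 lies near Cry1 and opposite Nr1d1.

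The genes whose profiles were most like each factor are given by Pearson's r over the 18 profiles, which share circadian times and array sets, as a description. For Dbp these were Nr1d2 (r = 0.95), Lefty1 (0.92), Slc5a6 (0.90), Cldn11 (0.90) and Gpr146 (0.89), and the least like were Ypel2 (-0.93), Lman2l (-0.92) and Leo1 (-0.91). For Tef they were Herpud1 (0.97), a gene of the unfolded protein response, Usp2 (0.91), Slc5a6 (0.90), Dnajb9 (0.89), also of that response, and Cry2 (0.89). Least like Tef were Slc30a2 (-0.95), Anp32a (-0.94) and Col5a3 (-0.94). For Hlf they were Rev1 (0.92), Rasl11b (0.92), Sptan1 (0.90), Dusp7 (0.88) and Arhgef6 (0.88), and the least like were Akip1 (-0.92), Tmem98 (-0.88) and Sh3gl2 (-0.85). Rasl11b, Sptan1 and Arhgef6 did not themselves pass the test of a 24 h rhythm (adjusted p = 0.135, 0.159 and 0.114).

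For Nfil3 the most like were Cry1 (0.92), Tubb4b (0.91), Farsb (0.90), Lonrf3 (0.90) and Tdrd3 (0.88). The least like were Nr1d1 (-0.94), Cirbp (-0.89), a cold-inducible RNA-binding protein gene, and Nim1k (-0.89). Among the factors themselves, r was 0.72 for Dbp with Tef, 0.58 for Dbp with Hlf, 0.69 for Tef with Hlf and -0.73 for Dbp with Nfil3. With Nfil3, r was -0.17 for Tef and -0.06 for Hlf. After the mean of each array set was taken off, Nr1d2 was still first for Dbp, Herpud1 for Tef and Cry1 for Nfil3, and Rasl11b became first for Hlf.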

How the data were processed

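Transcripts of whole adrenal glands were measured on 24 Affymetrix mouse arrays. The values are probe set intensity values on a linear scale, deposited by the authors; the steps of summary and scaling are not given in the sources used here. Medians of the arrays lay between 8.14 and 8.32 on the log2 scale, no further normalization was applied, and precision is limited by how many arrays there are. Each sample took its group from the hours since lights off that its label states.

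All 24 columns were compared in pairs, and 6 pairs whose ratios stayed within 5% for signals of at least 50 were averaged as 1 profile each. Tests used log2(intensity + 51), with 51 taken as the 10th percentile over the whole table, on the 27040 probe sets with a mean above the 40th percentile, with limma 3.58.1 (R version 4.3.3, trend on; tables read by data.table, version 1.17.8), and Benjamini-Hochberg adjustment over all of them with a threshold of 0.05. The rhythm test was a moderated F test on the cosine and sine of 24 h, and peak differences came from joint regressions with 95% intervals. Of 45101 probe sets, 64 were controls, 34958 carried 1 symbol, 932 carried several and 9211 were unlisted. Array sets were split at a ThrX-3 signal of 300. Named genes were the 8 probe sets of the 4 symbols, for each symbol the 5 genes with the highest and the 3 with the lowest r, and up to 4 genes of lowest p in each list, beside genes a sentence counts alone. The members, the gene lists and the alternatives were chosen with earlier results of these data known. Promoter windows came from RefSeq, and figures were drawn with Python 3.11.15, pandas 2.3.3 and matplotlib 3.10.9. The fits were tested on simulated data.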

Additional observations from a re-analysis of the deposited data

How the results depend on the processing

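The 24 h calls of both Dbp probe sets and of Tef 1424175_at passed in all alternatives run, with amplitudes of 1.97 to 2.29 for Dbp 1438211_s_at, 1.78 to 2.25 for Dbp 1418174_at and 0.86 to 0.98 for Tef 1424175_at. Signs of differences between circadian times were followed on the brightest probe set of each gene, where no difference past the threshold reversed its sign. Among differences that did not pass, the sign changed in 1 of 21 alternatives for Hlf 1434735_at at circadian time 2 minus 22 (0.08 without 82 h replicate 1, against -0.05), in 2 of 21 at 6 minus 2 (up to 0.05, against -0.01) and in 4 of 21 for Nfil3 at 22 minus 14 (down to -0.05, against 0.06). Of the 8 probe sets, 5 passed in the first array set alone, 5 over means of the 12 time points and 5 without the 4 profiles with muscle transcripts, and 3 to 8 when profiles or replicates were left out (3 without replicate 1, 4 without replicate 2). Over all 27040 probe sets 2747 passed, against 7412 with 24 columns as independent, 7209 with the replicate set as a replicate block over 24 columns, 4317 with the array set as a block, 1435 over time-point means, 1486 without the muscle profiles and 31 to 3359 with profiles or replicates left out (31 without replicate 1, 175 without replicate 2, 1726 without 46 h replicate 1). Dropping a replicate leaves fewer profiles.

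Hlf 1434735_at lost its call over time-point means (amplitude 0.35, adjusted p = 0.0954), and with profiles or replicates left out its amplitude was 0.34 to 0.43, with the call lost without replicate 1, without replicate 2, and without either 46 h replicate. Its peak was at 14.3 h in the first array set alone. Nfil3 had amplitudes of 0.87 to 1.17 with profiles or replicates left out and lost its call without replicate 1 (amplitude 1.01, adjusted p = 0.148). Nfil3 at circadian time 6 minus 2 did not pass with an offset 4 times larger (-0.87, adjusted p = 0.0691). Tef 1450184_s_at lost its call in 14 of 31 alternatives, Hlf 1434736_at in 5 and Tef 1438033_at in 4. At circadian time 14 minus 6 the number of the 8 probe sets past the threshold was 3 to 5 with profiles left out, the highest without the pair of 54 h and 78 h replicate 1. The 12 h component passed for 2 of the 8 with the array set as a block. The causes of these changes were not tested.

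By their labels, replicates of different time points share only a letter, so the replicate block above, which gave 7209 calls, is no known pairing of animals. Deviations from the time-point means correlated above 0.1 in 18 of 66 pairs of time points (r of -0.53 to 0.52). These deviations include the near-copy arrays, and time points that share such a pair are correlated by the copy itself. The count and the range of r therefore cannot decide whether replicates were paired. Dim signals limit the 2 smaller Tef probe sets and the trough of Nfil3.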

Other observations

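Within circadian times, the deviations of Dbp and Nfil3 from their means ran in opposite directions in 14 of 18 profiles. In the other 5 pairs of the 4 genes this held for 4 to 12 of 18. Deviations within a time are tied to one another by their mean, so these signs are not independent. Over the 18 profiles the deviations of Dbp 1438211_s_at and Nfil3 had a Pearson r of -0.57 (exact permutation within circadian times, two-sided, p = 0.0132, adjusted over 6 pairs of genes 0.0791) and a Spearman rho of -0.58 (p = 0.0204, adjusted 0.122). Without the 2 profiles farthest from the median of Dbp r was -0.47. The relation does not pass the adjustment over the 6 pairs, and the other 5 pairs of the 4 genes had adjusted p-values of 0.571 to 0.615 for r. For Dbp the 3 profiles of largest deviation were pairs counted as 1 sample: at circadian time 14 the pair of 50 h replicate 1 and 74 h replicate 2 lay 0.76 log2 units below the mean for Dbp and 0.40 above it for Nfil3, at 18 the pair of 54 h and 78 h replicate 1 lay 0.76 above for Dbp and -0.25 from the mean for Nfil3, and at 22 the pair of 58 h and 82 h replicate 2 lay 0.67 above for Dbp and -0.34 from the mean for Nfil3. For Nfil3 the largest deviations were those of single arrays, 0.52 at 46 h replicate 2 and 0.41 at 78 h replicate 2, where Dbp deviated by -0.08 and -0.47. Others were practically as large as the latter. The pair of 70 h arrays and the pair of 66 h replicate 1 and 42 h replicate 2 each lay at -0.40, with Dbp at 0.03 and 0.07. At 66 h replicate 2 Nfil3 deviated by 0.40 and Dbp by 0.01.

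In the 6 pairs of arrays counted as 1 sample, ratios of single probe sets ended at 0.95 and 1.05 and the quartiles of their log2 ratio lay near -0.04 and 0.04. The SD of that ratio was 0.0415 to 0.0418 in each pair, at low and at high signals alike. Of these pairs 5 joined arrays of equal circadian time in different cycles, and 1 joined both arrays of 70 h.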
